A study of Mus musculus with 6 samples.

Results

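Human counterparts of 7 mouse genes have been reported as candidate risk genes for Tourette syndrome and tics. Expression of these mouse genes was described in nuclei of dissected striatum: Wwc1, Nipbl, Fn1, Cntn6, Cntnap2, Immp2l and Col27a1. They were taken by name from a table of 24841 genes and 48834 nuclei, and all 7 were listed. Celsr3, a further reported candidate and the gene altered in the mice, was kept apart. Dissected, flash-frozen striatum of wild type mice (3 libraries) and Celsr3 heterozygous mice (3 libraries) had been profiled by single-nucleus RNA sequencing. Each library is labelled a biological replicate. The labels name no age, sex, strain, litter or preparation batch, nor the kind of Celsr3 allele, and do not say whether a library held 1 animal or a pool. If samples shared an animal, the p-values below measure only the spread between these samples.

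The 7 genes do different work in a cell. Contactins (Cntn6) and contactin-associated proteins (Cntnap2) are adhesion molecules of the neuronal surface, and the product of Cntnap2, Caspr2, helps to hold potassium channels beside the nodes of myelinated axons. Fibronectin (Fn1) and the collagen encoded by Col27a1 are matrix proteins. Wwc1 encodes KIBRA, a scaffold that acts upstream of the Hippo kinases and is also studied at synapses. Nipbl encodes the loader that places cohesin on chromatin, and Immp2l a subunit of the peptidase that trims proteins at the inner mitochondrial membrane. The striatum consists mostly of medium spiny neurons, which carry either the D1 or the D2 dopamine receptor, with interneurons, glia and vessels between them.

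Values look like depth-corrected UMI values, judged from their totals, and were averaged per nucleus in each library. Totals per nucleus were nearly equal (coefficient of variation 10.7%). A class mean is thus nearer to a share of a nucleus's measured RNA than to an amount of it. After probable doublets were left out, 47934 nuclei remained, with 7594 to 8684 per library and a median of 2438.5 genes per nucleus in wild type replicate 1 against 2832 to 3002 in the other libraries. Clusters built without the 7 genes were named X-like when at least 3 markers of a cell type exceeded the other nuclei by 2-fold. MSN stands for medium spiny neuron and OPC for oligodendrocyte precursor cell. In all, 14 classes had at least 20 nuclei in every library and were tested, 3 small classes were described only, and 5 clusters with 5395 nuclei stayed unnamed. Of the 47934 nuclei, 8480 were D1 MSN-like, 7098 D2 MSN-like and 4010 glutamatergic neuron-like. Whether all nuclei came from the striatum itself was not tested. The make-up of the libraries was uneven, with 208 to 1544 glutamatergic neuron-like nuclei. Heterozygous replicate 1 held 27 OPC-like nuclei and none of unnamed cluster 22. That cluster, with 697 nuclei in all, was led by Trpm6, Lhx9, Lef1 and Shox2. In all, 274 cell barcodes occurred in more than 1 library. As a check of the labels, Celsr3 per nucleus was compared between genotypes. Every heterozygous library (0.0616, 0.0694 and 0.0647) was below every wild type library (0.0749, 0.1002 and 0.108), with a limma adjusted p of 0.46. The groups did not overlap for 19.3% of all genes over all nuclei and for 16.1% in D1 MSN-like nuclei. D1 MSN-like nuclei averaged 0.166 ± 0.0155 for wild type and 0.0938 ± 0.0133 for heterozygous libraries (SD, n = 3 each, log2 difference −0.76, limma adjusted p = 0.139). In D2 MSN-like and glutamatergic neuron-like nuclei all heterozygous libraries were lower too. In GABAergic interneuron-like nuclei the groups overlapped, at means of 0.143 for wild type and 0.129 for heterozygous libraries (limma adjusted p = 0.983).

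The genes lie on 6 chromosomes of the GRCm38 build (GENCODE M21 annotation). Cntnap2 is on chr6:45059357-47304213 (+), Cntn6 on chr6:104492790-104863406 (+), Fn1 on chr1:71585520-71653200 (−), Col27a1 on chr4:63214004-63334991 (+), Wwc1 on chr11:35838400-35980527 (−), Nipbl on chr15:8290617-8444463 (−) and Immp2l on chr12:41024090-41955588 (+). Exons make up 17.3% of Fn1, 10.8% of Col27a1 and 6.12% of Nipbl, against 0.457% of Cntnap2 and 0.197% of Immp2l, and nuclear RNA holds much unspliced transcript. On the strand opposite to Immp2l lie 7 genes of the table, of which Lrrn3 had the highest mean (0.368 per nucleus), and opposite to Fn1 lies Apol7d. Whether counting used strand is not given in the sources used here, and without strand, reads from shared stretches cannot be told apart. Lrrn3 had a pattern of its own over the classes: in endothelial-like nuclei it was at 154.03% of its D1 MSN-like level and Immp2l at 77.3%.

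RefSeq promoter windows (250 bases before to 50 after a start, GRCm38.p6) were matched for 5 of the 7 genes. The stretches upstream of Wwc1, which differed strongly between classes, and of Immp2l, which was broad, are shown 5′ to 3′ in the direction of the gene, from chr11:35980528-35980777 (−) and chr12:41023840-41024089 (+). Capitals mark matches, on either strand, to CCAAT (the CCAAT box) and GGGCGG (the GC box).
Wwc1: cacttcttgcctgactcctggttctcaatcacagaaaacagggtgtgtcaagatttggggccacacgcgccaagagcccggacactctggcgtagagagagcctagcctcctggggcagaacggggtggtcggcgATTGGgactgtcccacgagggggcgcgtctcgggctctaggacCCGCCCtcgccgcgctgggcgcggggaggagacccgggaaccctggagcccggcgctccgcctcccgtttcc
Immp2l: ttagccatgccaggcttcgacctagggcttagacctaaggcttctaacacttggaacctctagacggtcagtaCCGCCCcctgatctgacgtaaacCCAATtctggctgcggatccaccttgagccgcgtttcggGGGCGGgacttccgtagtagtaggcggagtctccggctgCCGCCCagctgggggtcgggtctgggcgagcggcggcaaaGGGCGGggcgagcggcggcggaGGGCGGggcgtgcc
The 300-base windows of both genes were rich in CpG, with 27 CpG in that of Wwc1 and 32 in that of Immp2l, against a median of 7 over 32851 windows of all genes. Wwc1 held 1 CCAAT box and 1 GC box. Immp2l held 1 CCAAT box and 6 GC boxes, 1 of them past the printed stretch. A CCAAT box occurs in 37.4% and a GC box in 35.7% of all windows. Of the other motifs searched on both strands, TATAAA occurs in 13.6% and TGACGTCA in 1.79% of all windows, and these letters were found in neither window. The window of Cntn6 held 4 CpG, and that of Col27a1 held 18. A match is a description of the letters only.

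Each gene had its own pattern over the 14 classes. Fn1, Col27a1, Wwc1 and Cntn6 differed widely between classes, Cntnap2 was led by neurons, and Nipbl and Immp2l were present throughout. The class means over the 6 libraries are given below as descriptions.

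**Figure D1:**
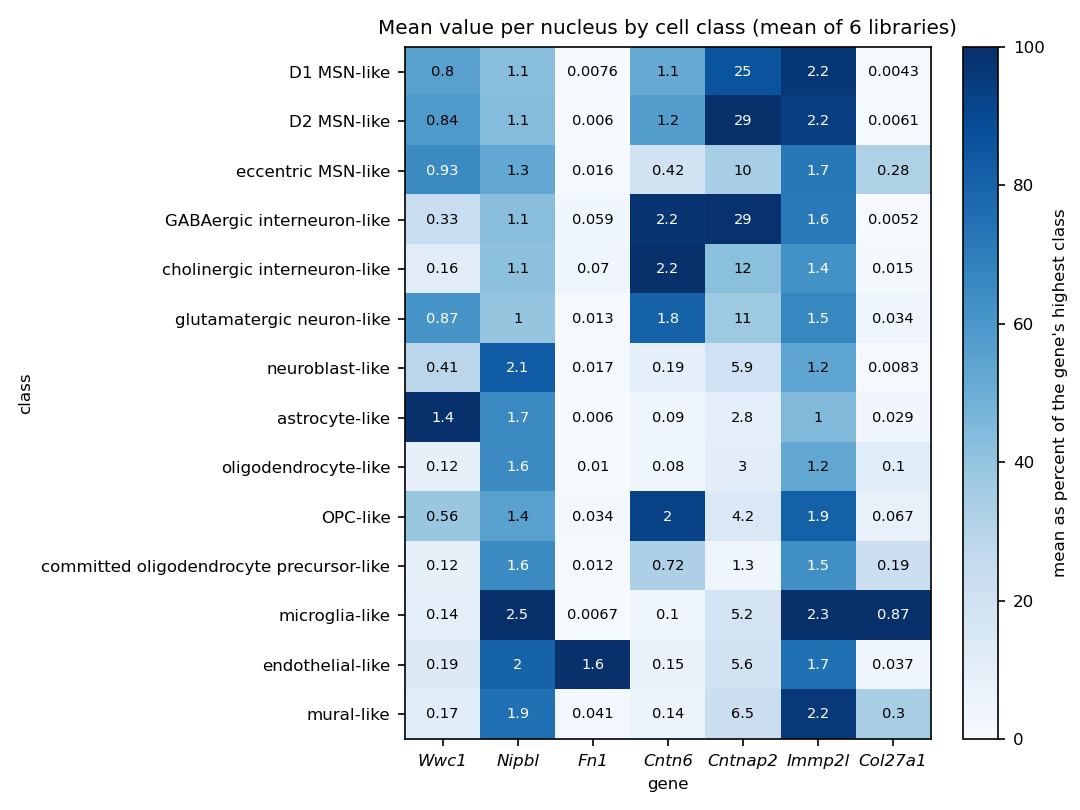
Mean value per nucleus of the 7 genes (columns) in the 14 classes (rows), as the mean of 6 libraries, printed in each cell, with colour as percent of the gene's highest class. Fn1 is high in 1 class, while the lowest class of Nipbl is at 39.8% and that of Immp2l at 44.9% of the highest.

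Among the 14 classes, Cntn6 was highest in interneuron-like and OPC-like nuclei. It was at 1.77 to 2.85 per nucleus in cholinergic interneuron-like nuclei (mean 2.20), at 1.94 to 2.57 in GABAergic interneuron-like nuclei (2.15) and at 1.85 to 2.21 in OPC-like nuclei (2.04). These ranges overlap, so the 3 classes are not ordered beyond the spread between libraries. Glutamatergic neuron-like nuclei followed at 1.78, below OPC-like nuclei in 5 of 6 libraries, then D2 MSN-like nuclei at 1.25 and D1 MSN-like nuclei at 1.13. The interneuron and glutamatergic classes joined unlike clusters. Of the GABAergic interneuron-like clusters, 21 was at 2.91 and 23 at 2.11, while cluster 29, with Nos1, Npy and Sst among its leading genes, was at 0.523 (0.333 to 0.774 over libraries), below D1 MSN-like nuclei. The glutamatergic neuron-like clusters ran from 0.138 in cluster 27 to 4.81 in cluster 37, which held 83 nuclei.
In the oligodendrocyte lineage the mean was 2.04 in OPC-like nuclei, 0.722 in committed oligodendrocyte precursor-like nuclei (0.600 to 0.796 by library) and 0.0796 in oligodendrocyte-like nuclei (0.0582 to 0.0931). The 3 ranges do not overlap. Cntn6 was above 0 in 66.5%, 27.6% and 4.56% of these nuclei, at medians of 2119, 2515.5 and 1878 genes per nucleus. For comparison, astrocyte-like nuclei, at a median of 2030 genes, had a value above 0 in 5.42%.
Cluster 22, the unnamed nuclei that heterozygous replicate 1 lacks, had the highest Cntn6 mean of any cluster, at 5.30, with 4.24, 7.46 and 6.50 for wild type and 5.74 and 4.41 for heterozygous replicates 2 and 3. It held 1.45% of the nuclei and 8.27% of the summed Cntn6 value.

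Among the 14 classes, Cntnap2 was highest in D1 and D2 MSN-like and GABAergic interneuron-like nuclei. It was at 29.1 per nucleus in D2 MSN-like nuclei (27.3 to 30.2 over libraries), 28.8 in GABAergic interneuron-like nuclei (19.0 to 37.8) and 25.1 in D1 MSN-like nuclei (23.03 to 26.1). The interneuron mean cannot be placed above or below the medium spiny neurons, because its range spans theirs. It came from unlike clusters: cluster 21, with Vip, Igf1 and Kcns3 among its leading genes, was at 46.3, cluster 23, with Kit and Nkx2-1, at 18.3 to 20.8 over libraries, and cluster 29, with Nos1, Npy and Sst, at 6.30 to 9.15.
Cholinergic interneuron-like nuclei were at 12.2, glutamatergic neuron-like nuclei at 10.9 and eccentric MSN-like nuclei, a spiny neuron group marked by Otof and Casz1, at 10.1. Cntnap2 was above 0 in 64.1% or more of the nuclei of each of the 14 classes.
Cntnap2 was also found in glia and vessels, where genes of medium spiny neurons were found too, at unequal shares. As a share of the level in D1 MSN-like nuclei, Pde10a, a phosphodiesterase of medium spiny neurons, was at 10.6% in astrocyte-like, 10.6% in oligodendrocyte-like, 17.6% in microglia-like, 19.3% in endothelial-like, 23.01% in mural-like, 5.13% in committed precursor-like and 21.1% in OPC-like nuclei. Rgs9, a regulator of G protein signalling in the same neurons, was at 9.87%, 9.56%, 18.8%, 17.9%, 21.2%, 4.45% and 16.9% in these classes. Cntnap2 was at 11.2%, 12.01%, 20.9%, 22.4%, 25.9%, 5.33% and 16.8%, a little above both in 6 of the 7 classes. In OPC-like nuclei it was close to Rgs9 and below Pde10a. There heterozygous replicate 1, with 27 nuclei, was high for all 3 genes, and without it Cntnap2 was at 13.2%, Rgs9 at 12.1% and Pde10a at 18.5%, so Cntnap2 was above Rgs9 and below Pde10a. Ppp1r1b, which encodes DARPP-32, a phosphatase inhibitor of the same neurons, was at 59.0%, 53.2%, 71.5%, 71.0%, 74.96%, 39.0% and 54.1%, far above Cntnap2 in all 7. The part of medium spiny neuron RNA in these Cntnap2 values was not tested.
Cntn6 was at 180.2% of the D1 level in OPC-like and at 63.8% in committed precursor-like nuclei. Pde10a, Rgs9 and Ppp1r1b were likewise lower in the second class than in the first, at the smaller shares given above. Their part in the Cntn6 values was not tested.

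**Figure D2:**
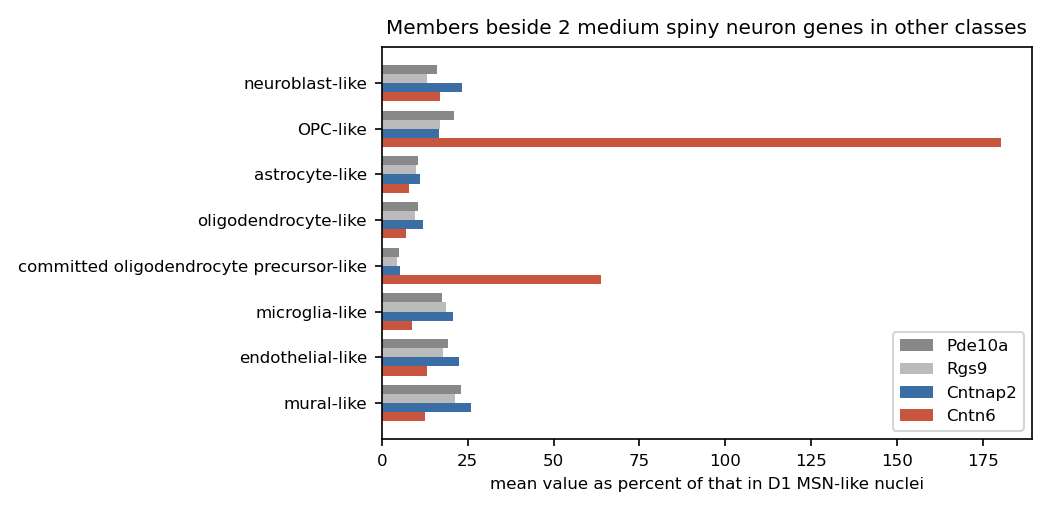
Mean value per nucleus in 8 non-neuronal or immature classes as percent of the mean in D1 MSN-like nuclei (bars, mean of 6 libraries), for 2 medium spiny neuron genes (Pde10a and Rgs9, grey), Cntnap2 and Cntn6. The Cntnap2 bars lie above both grey ones in 7 of the 8 classes. In OPC-like nuclei they lie level with Rgs9, a place that turns on 1 library with 27 nuclei, and the Cntn6 bars stand far above the grey ones in OPC-like and committed oligodendrocyte precursor-like nuclei.

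Among the matrix genes, Fn1 was concentrated in endothelial-like nuclei. Endothelial-like nuclei had 1.07 to 1.86 per nucleus (mean 1.58) and 69.2% of the summed Fn1 value, and the next of the 14 classes, cholinergic interneuron-like nuclei, was at 0.0701. That mean came from the heterozygous libraries alone, at 0.281, 0.116 and 0.0233, over 29 to 43 nuclei per library, and the 3 wild type libraries were at 0. Fn1 was too low there to test, and for 10% of the genes tested in that class the groups did not overlap. Fn1 was above 0 in 54.0% of endothelial-like nuclei and in 0.426% to 3.45% of the nuclei of the other 13 classes. Within the endothelium, cluster 36, led by the arterial genes Eln, Bmx, Mgp and Fbln5, was at 3.04, with 1.25, 4.68 and 1.71 in the wild type and 3.42, 2.63 and 3.38 in the heterozygous libraries. The larger cluster 18, led by Slco1a4 and Flt1, was at 0.966 to 1.77. The ranges overlap, and cluster 36 held 85 nuclei.
Fibroblast-like nuclei, 230 in all and too few for a test, had 0, 0.222 and 0.233 in the wild type and 0.900, 0.261 and 0.714 in the heterozygous libraries. Heterozygous replicate 1 gave 100 of the 230 nuclei. In the same nuclei Col27a1 was at 0.533, 0.519 and 0.367 in the wild type and at 0.13, 0.217 and 0.2 in the heterozygous libraries. All heterozygous libraries were higher for Fn1 and lower for Col27a1, without a test and over 15, 27 and 30 wild type nuclei. Of 8115 genes with a mean of at least 0.1 in this class, the groups did not overlap for 9.8%.

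Among the 14 classes, Col27a1 was highest in microglia-like nuclei. Microglia-like nuclei had 0.728 to 1.075 per nucleus (mean 0.866) and 43.9% of the summed value, although the gene is best known as a fibrillar collagen of cartilage. Mural-like nuclei were at 0.300, eccentric MSN-like nuclei at 0.278 and committed oligodendrocyte precursor-like nuclei at 0.187, with overlapping ranges, while D1 and D2 MSN-like nuclei were at 0.00432 and 0.00615.
Col27a1 also set clusters apart within classes. Oligodendrocyte-like cluster 15, which held Opalin among its leading genes, was at 0.270 to 0.344 over libraries, above cluster 1 (0.0597 to 0.119) and cluster 6 (0.0180 to 0.0543) in all of them. Unnamed cluster 22 had the highest mean of any cluster, at 1.06 over its nuclei against 0.868 in microglia-like cluster 7. Cluster 22 was at 0.431, 2.67 and 1.33 for wild type and at 1.15 and 0.753 for heterozygous replicates 2 and 3. Microglia-like nuclei were higher in wild type replicate 1, at 0.728, and in heterozygous replicate 3, at 1.075. Cluster 22 gave 9.09% to 20.1% of the Col27a1 value in the 5 libraries that hold it and none in heterozygous replicate 1.

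Wwc1 was highest in astrocyte-like nuclei among the tested classes. They had 1.30 to 1.6 per nucleus (mean 1.44), 12.4 times the 0.116 of oligodendrocyte-like nuclei, and each library was above every library of the next class. The astrocyte-like clusters 3, 8 and 19 were at 1.64, 1.33 and 0.942, and cluster 19 was led by Thbs4, Tnc, Myoc and Gfap.
Eccentric MSN-like, glutamatergic neuron-like, D2 MSN-like and D1 MSN-like nuclei stood at 0.935, 0.872, 0.845 and 0.801, with overlapping ranges, and GABAergic interneuron-like nuclei at 0.331. The small classes that line the ventricles were higher: ependymal-like nuclei (152 in all) had 2.68 to 5.16, and choroid plexus-like nuclei, found in only 3 libraries, had 2.48, 2.76 and 2.63.

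Nipbl and Immp2l were broad. Nipbl was highest in microglia-like nuclei (2.41 to 2.63, mean 2.53) and lowest in glutamatergic neuron-like nuclei (1.01), a ratio of 2.51. Neuroblast-like, endothelial-like and mural-like nuclei were at 2.09, 2.03 and 1.90, and the neuronal classes other than neuroblasts at 1.01 to 1.32. Each microglia-like library was above each library of those neuronal classes.
Immp2l was at 2.30 in microglia-like, 2.24 in D1 MSN-like, 2.23 in mural-like and 2.17 in D2 MSN-like nuclei, an order within the spread between libraries. Astrocyte-like nuclei were lowest at 1.03, and the ratio of highest to lowest was 2.23. Choroid plexus-like nuclei were at 4.64, 5.88 and 4.84 in the 3 libraries that hold them.

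For each gene the 3 genes with the most similar pattern were taken from 11791 genes by Pearson correlation of log2 means over the 14 classes. These classes share the same 6 libraries, so the correlations are descriptions. Cntnap2 was most like its relative Cntnap1 (r = 0.962), Clvs1 and the contactin gene Cntn5. Cntn6 was most like the synaptic adhesion gene Slitrk3 (r = 0.947), Znhit6 and Ccl25. Fn1 was most like Bsg, which encodes basigin (r = 0.951), Cyyr1 and Paqr5, and Col27a1 like Plekha2 (r = 0.817), Plxdc2 and E330020D12Rik. Wwc1 was most like the neurotrophin receptor gene Ntrk2 (r = 0.917), Shc3 and Prelid3a, Nipbl like Rbm39 (r = 0.960), Crebbp and Prrc2c, and Immp2l like Ascc3 (r = 0.873), Prkcb and Etnk1. Between the 7 genes themselves, r ran from −0.838 (Nipbl with Cntn6) to 0.590 (Nipbl with Col27a1).

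Of lists of related genes, few had their highest class, by mean, in common with the candidate. No share of all genes is given for comparison. Yap1, an effector of the Hippo pathway, was highest in astrocyte-like nuclei like Wwc1, at 0.328 ± 0.0193 per nucleus (SD, n = 6). Chl1 and L1cam, adhesion genes of the immunoglobulin family, were highest in cholinergic interneuron-like nuclei, at 2.38 ± 0.746 and 0.821 ± 0.134. Cntn6 had its highest mean there too, but its range there overlaps those in GABAergic interneuron-like and OPC-like nuclei. Tgm2 and Hspg2, a transglutaminase and the basement membrane proteoglycan perlecan, were highest in endothelial-like nuclei like Fn1, at 0.156 ± 0.0402 and 0.267 ± 0.0706. Cntnap5b and Dlg4 were highest in D2 MSN-like nuclei, the class with the highest Cntnap2 mean. The mitochondrial protease gene Oma1 was highest in microglia-like nuclei, the class with the highest Immp2l mean. For Cntnap2 and Immp2l too, the range of the highest class overlaps that of the next. None of the 10 listed fibrillar collagens shared the top class of Col27a1.

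The D1 and D2 MSN-like nuclei of the same 6 libraries were compared directly, with the 7 candidates left out of the genes that built the clusters. Cntnap2, Cntn6 and Wwc1 were lower in D1 than in D2 MSN-like nuclei, by small amounts. Of the 13492 genes tested, 36.8% passed an adjusted p of 0.05, 28.4% higher and 8.34% lower in D1, so the 3 of 5 tested candidates that passed stand against a large background. Genes that built the clusters are part of that background. The median log2 difference over all tested genes was 0.08, so a value near 0.08 is not particular to 1 gene. Fn1 and Col27a1 were too low in both classes to be tested.
By library, Cntnap2 in D1 MSN-like nuclei was at 25.1, 24.5 and 26.1 in wild type and 26.1, 25.7 and 23.03 in heterozygous mice, and in D2 MSN-like nuclei at 29.5, 30.2 and 29.9 and at 28.7, 28.95 and 27.3. All D2 values are above all D1 values. The log2 difference was −0.21 ± 0.02 (SE; adjusted p = 4.93e-09), with D1 lower in 6 of 6 libraries.
Cntn6 was at 1.18, 1.06 and 1.09 and at 0.993, 1.33 and 1.13 in D1, against 1.54, 1.24 and 1.14 and 1.06, 1.24 and 1.28 in D2 MSN-like nuclei. The ranges overlap, and D1 was lower in 5 of 6 libraries (log2 difference −0.14 ± 0.04, SE; adjusted p = 0.00939). Without wild type replicate 1 the difference was −0.09 (adjusted p = 0.04996 by limma), barely past the threshold.
Wwc1 means were 0.801 ± 0.127 in D1 and 0.845 ± 0.107 in D2 (SD, n = 6), with D1 lower in 5 of 6 libraries (log2 difference −0.08 ± 0.03, SE; adjusted p = 0.0333). Immp2l (2.24 ± 0.0951 against 2.17 ± 0.170; adjusted p = 0.0875) and Nipbl (1.079 ± 0.0621 against 1.10 ± 0.0510; adjusted p = 0.488) did not pass.

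The clusters joined in each class had unlike levels. The D1 MSN-like class joined clusters 2, 5 and 12, and the D2 MSN-like class clusters 0 and 9. Clusters 12 and 9 shared leading genes such as Zp3r, Myo3b and Gm16083, and both had low Cntnap2, at 11.2 and 15.6, and low Cntn6, at 0.680 and 0.565. Cluster 5, with Pdyn and Drd3 among its leading genes, was at 31.9 for Cntnap2 and 1.32 for Cntn6, close to the 32.8 and 1.42 of cluster 0. Cluster 2 was at 24.6 and 1.13.
With every cluster given equal weight, Cntnap2 stayed lower in D1 (log2 difference −0.09, adjusted p = 0.000423), Cntn6 turned to 0.07 (adjusted p = 0.18) and Immp2l passed the threshold (0.08, adjusted p = 0.0380, higher in D1). Wwc1 was no longer past it (adjusted p = 0.0874), at nearly the same difference as before, −0.08 ± 0.03 (SE).
Other settings moved the calls with the same cluster make-up. Without the filter on low values, where 24439 genes were tested, Cntnap2 alone of the candidates passed. The differences of Cntn6 and Wwc1 stayed at −0.14 and −0.08, with adjusted p of 0.0692 and 0.0599. Wwc1 lost its call without wild type replicate 1, wild type replicate 2, heterozygous replicate 1 or heterozygous replicate 2 (differences of −0.06, −0.09, −0.08 and −0.07; adjusted p = 0.115, 0.0550, 0.0774 and 0.0949 by limma), and Immp2l passed without heterozygous replicate 2 (adjusted p = 0.0343).

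**Figure D3:**
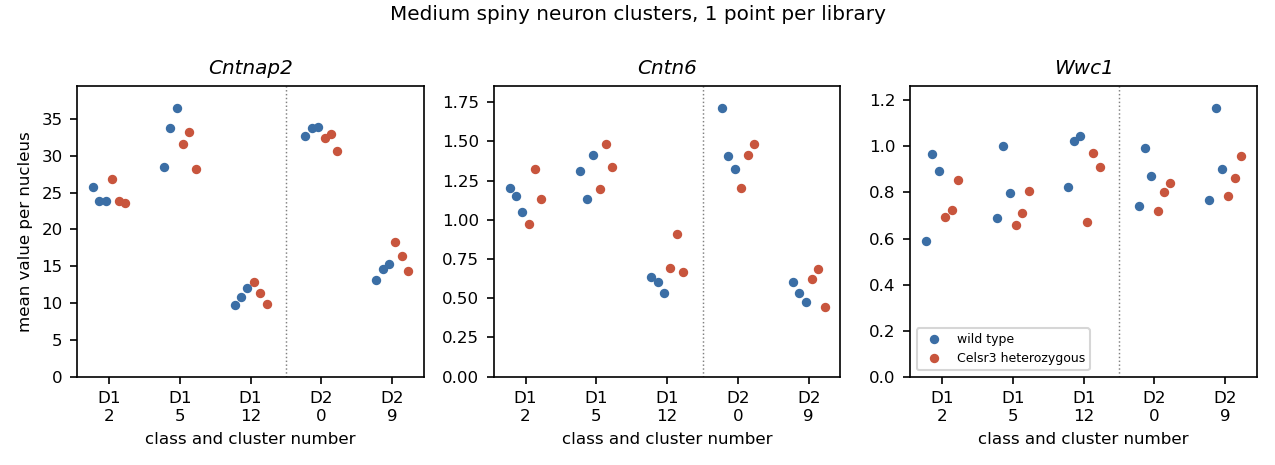
Mean value per nucleus of Cntnap2, Cntn6 and Wwc1 in the 5 medium spiny neuron-like clusters (D1: 2, 5 and 12; D2: 0 and 9), 1 point per library, wild type in blue and Celsr3 heterozygous in red. For Cntnap2 and Cntn6, clusters 12 and 9 lie below the other 3 in every library, and clusters of 1 class differ more than the classes do.

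Relatives of the candidates were not left out of the clustering, so their levels in the D1 and D2 classes are described with no test. Among the contactin-associated family, Cntnap3 was at 1.19 ± 0.367 in D1 and 0.159 ± 0.0299 in D2 MSN-like nuclei, Cntnap5c at 1.601 ± 0.431 and 0.345 ± 0.114, and Cntnap5a at 4.69 ± 0.311 and 3.26 ± 0.326 (SD, n = 6). Cntnap5b was at 2.31 ± 0.156 and 3.89 ± 0.238. D1 was above D2 in 6 of 6 libraries for the first 3 and in 0 of 6 for Cntnap5b.
Ptprg and Ptprz1, receptor phosphatases that bind contactins, were at 1.21 ± 0.263 against 0.714 ± 0.223 and at 0.462 ± 0.0622 against 0.202 ± 0.0294, and Cntn4 was at 8.77 ± 0.398 against 10.4 ± 0.503. Yap1 was at 0.0558 ± 0.0108 in D1 and 0.103 ± 0.0228 in D2. It went against most of its list: of 14 Hippo list genes, 11 were higher in D1 and 3 lower by log2 difference. Their median was 0.08, and that of all genes 0.08. Gpd2, a glycerol phosphate dehydrogenase and substrate of the Immp2l peptidase, was at 0.165 ± 0.0264 and 0.106 ± 0.0183. For Gpd2 and the phosphatases D1 was higher, and for Cntn4 and Yap1 lower, in 6 of 6 libraries.

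The labels set Celsr3 heterozygous against wild type libraries. None of the 7 candidates passed the test between genotypes over all nuclei. In these bulk-like means, fewer nuclei of a class and less RNA per nucleus cannot be told apart. Of 14397 genes tested, 0% passed an adjusted p of 0.05 and 9.93% had an unadjusted p under 0.05, against 0 of the 7 candidates on either count. Wwc1 had an unadjusted p under 0.05 in 2 other settings, with equal cluster weights and without wild type replicate 1, where its log2 difference went from −0.05 to −0.18 ± 0.07 and −0.17 ± 0.06 (SE; adjusted p = 0.502 and 0.497 by limma). The groups did not overlap for 19.3% of all genes and for 0 of the 7. The median log2 difference was 0.02 over the 7 and 0.07 over all genes, and 4 of the 7 were above 0.

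Among the adhesion genes, Cntn6 was at 0.828, 0.879 and 0.963 for wild type and at 0.949, 1.06 and 0.905 for heterozygous mice. The groups overlap, and the log2 difference of 0.13 had a 95% interval of −0.09 to 0.34 (adjusted p = 0.607). Without heterozygous replicate 2 the difference was 0.06, without wild type replicate 1 it was 0.08, with median-ratio size factors 0.06 and with equal cluster weights 0.03. Cntnap2 was at 12.8, 16.2 and 14.9 and at 16.2, 16.9 and 12.9, with overlapping groups and an interval of −0.28 to 0.40. The libraries differ in their make-up. Unnamed cluster 4, led by Sim1 and Baiap3, gave 2.60% of the Cntnap2 value in heterozygous replicate 1 and 23.2% in heterozygous replicate 2. Of the Cntn6 value it gave 3.90% and 28.4% in these libraries, and 5.68% to 13.9% in the wild type ones. Cluster 22 gave 0% of the Cntn6 value in heterozygous replicate 1 and 14.1% in heterozygous replicate 3.
Of the matrix genes, Fn1 was at 0.0402, 0.0516 and 0.0497 and at 0.0630, 0.0276 and 0.0514, with heterozygous replicates 1 and 2 as the highest and the lowest of all 6. In heterozygous replicate 1, fibroblast-like nuclei gave 18.5% of the Fn1 value, against 0% to 5.61% in the other libraries. Col27a1 was at 0.0768, 0.115 and 0.114 and at 0.0662, 0.0992 and 0.123. Its lowest library is the one with no nuclei of cluster 22, and without that library the log2 difference turned from −0.09 to 0.13. The part of the uneven make-up in these values was not tested.
Inside the cell, Wwc1 was at 0.572, 0.757 and 0.728 and at 0.646, 0.654 and 0.677, so the heterozygous libraries lie between the lowest wild type library and the other 2. Nipbl was at 1.38, 1.41 and 1.38 and at 1.35, 1.46 and 1.43 (interval −0.13 to 0.18), and Immp2l at 1.69, 1.80 and 1.68 and at 1.68, 1.90 and 1.68 (interval −0.16 to 0.21). Wwc1 had an interval of −0.31 to 0.22, Fn1 of −0.61 to 0.53 and Col27a1 of −0.64 to 0.46, so the last 2 bound a difference less tightly.

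**Figure D4:**
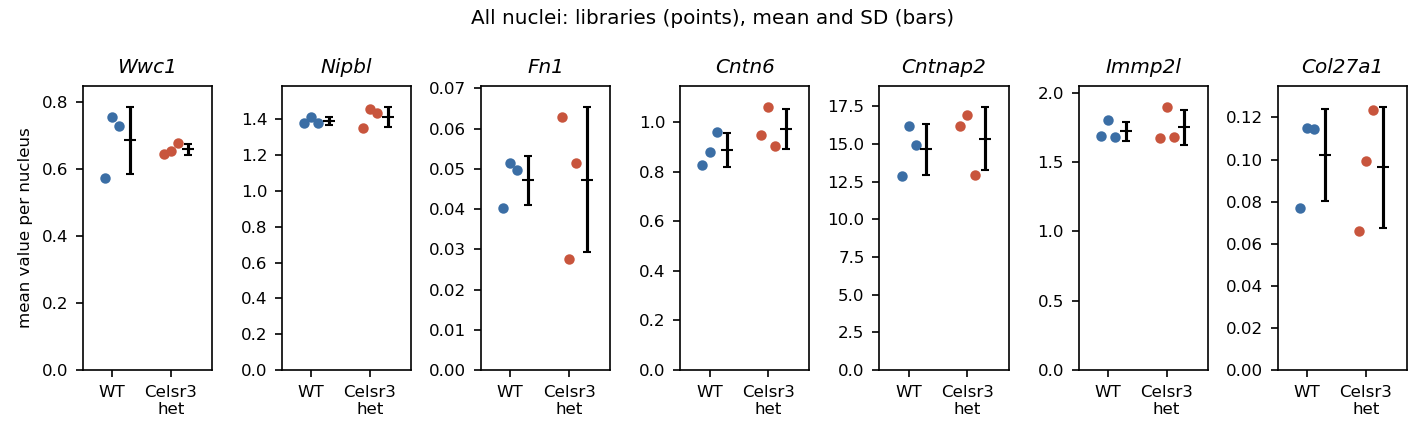
Mean value per nucleus of the 7 genes over all nuclei, 1 point per library, for wild type (blue, n = 3) and Celsr3 heterozygous mice (red, n = 3), with the mean and SD of each group in black. The groups overlap for all 7 genes.

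Within the 14 classes the candidates gave 68 tests, and none passed. Of the 105948 tests of all genes in these classes, 0.00378% passed. Of the 68, 3 had an unadjusted p under 0.05 (6.31% of all tests), and in 4 the groups did not overlap (11.9% of all tests). Both counts are small and fall below these shares of all tests. The tests share the same libraries, and whether the candidates differ from the background was not tested. The number of calls over all genes moved with 1 library and with the weighting. Without wild type replicate 1, 215 genes passed in D1 and 126 in D2 MSN-like nuclei, against 2 and 1 with all libraries. With array weights 461 and 173 passed, and in both settings 0 candidates did.
No candidate passed in the class, among the 14, where its mean was highest. Wwc1 in astrocyte-like nuclei was at 1.30, 1.30 and 1.597 in wild type and 1.6, 1.41 and 1.42 in heterozygous mice (log2 difference 0.08 ± 0.11, SE; adjusted p = 0.934). Fn1 in endothelial-like nuclei was at 1.47, 1.86 and 1.66 and at 1.57, 1.07 and 1.84 (−0.19 ± 0.20; adjusted p = 0.969). Col27a1 in microglia-like nuclei was at 0.728, 0.907 and 0.857 and at 0.761, 0.871 and 1.075 (0.11 ± 0.14; adjusted p = 0.958). These 3 sets overlap. So did Nipbl and Immp2l in microglia-like nuclei, the class of their highest means (limma adjusted p = 0.964 and 0.933). Cntn6 in cholinergic interneuron-like and Cntnap2 in D2 MSN-like nuclei are also in the class of their highest mean. There the groups did not overlap, as described below.
Nipbl and Immp2l, measured in every class, had intervals in D1 MSN-like nuclei of −0.04 to 0.27 and −0.18 to 0.12. Nipbl there was at 1.01, 1.06 and 1.03 in wild type and 1.15, 1.16 and 1.06 in heterozygous mice, which overlap. Its limma adjusted p of 0.609 was the smallest among the 68, but each class was adjusted on its own, so these values do not rank across classes. Its unadjusted limma p was 0.136. That of Cntnap2 was 0.0146 in astrocyte-like and 0.0389 in microglia-like nuclei, and that of Cntn6 was 0.0394 in cholinergic interneuron-like nuclei.

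Some sets too low to test also stood apart, with all heterozygous libraries higher. Mean values in wild type and heterozygous libraries were 0.115 and 0.180 for Cntn6 in endothelial-like nuclei. They were 0.0205 and 0.0383 for Col27a1 in astrocyte-like and 0.00663 and 0.0251 for Fn1 in eccentric MSN-like nuclei. Fn1 in cholinergic interneuron-like nuclei was given above. Of the tested genes of these classes, 8.87% to 12.1% did not overlap. Those genes passed the filter on low values and these sets did not, so the shares are not a like background. Without the filter the candidates gave 98 tests in the classes in place of 68, and 0 passed. The 4 tested sets that did not overlap were as follows. Cntn6 in cholinergic interneuron-like nuclei was at 2.40, 2.85 and 2.24 for wild type and at 1.94, 2.02 and 1.77 for heterozygous mice. All heterozygous libraries were lower (log2 difference −0.38 ± 0.15, SE; adjusted p = 0.863), over 29 to 43 nuclei per library. In that class the groups did not overlap for 10% of all genes.
Cntnap2 in astrocyte-like nuclei was at 2.10, 2.51 and 2.81 and at 2.97, 3.42 and 2.99, so all heterozygous libraries were higher (0.34 ± 0.12; adjusted p = 0.646; 12.1% of genes did not overlap in this class). In the same nuclei Pde10a was at 2.15, 2.49 and 2.29 and at 2.36, 2.53 and 2.56, and Rgs9 at 0.560, 0.639 and 0.571 and at 0.609, 0.683 and 0.594, overlapping sets. Ppp1r1b, at 0.441, 0.557 and 0.359 and at 0.4, 0.502 and 0.455, overlapped too. Their part in the Cntnap2 values was not tested.
Cntnap2 in D2 MSN-like nuclei, given by library above, was lower in all heterozygous libraries (−0.08 ± 0.06; adjusted p = 0.792; 14.7% of genes did not overlap). With equal weight to clusters 0 and 9 the difference turned to 0.01. Immp2l in endothelial-like nuclei was at 1.66, 1.58 and 1.52 and at 1.73, 2.16 and 1.75, all heterozygous libraries higher (0.24 ± 0.15; adjusted p = 0.966; 8.87% of genes did not overlap). Without heterozygous replicate 2 the Immp2l difference was 0.13.
In OPC-like nuclei 1 library stood apart: Cntnap2 was at 8.81 in heterozygous replicate 1, with 27 nuclei, against 2.69 to 4.07 in the other libraries. Rgs9 was at 2.56 there and at 0.661 to 0.859 elsewhere, and Pde10a at 8 and 3.68 to 4.57. Ppp1r1b was at 0.296 there and at 0.371 to 0.581 elsewhere.

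**Figure D5:**
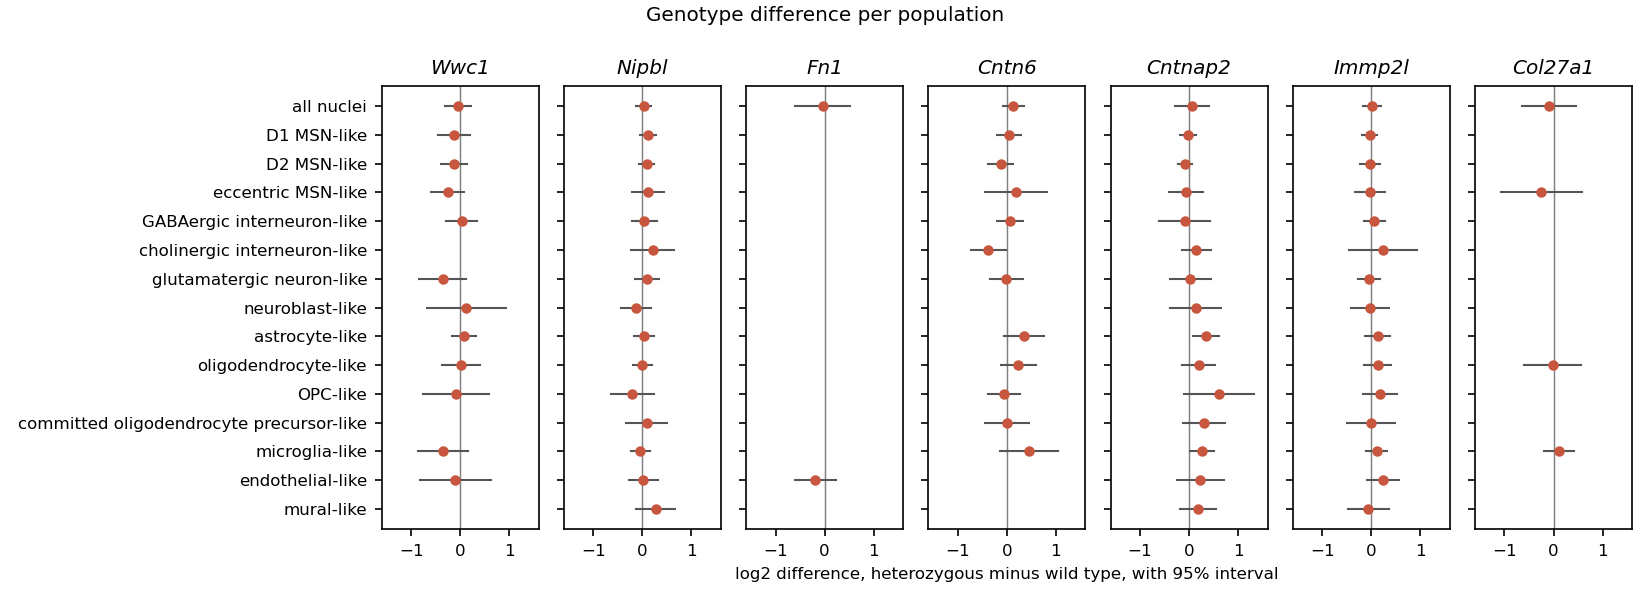
Log2 difference between Celsr3 heterozygous and wild type libraries (points) with its 95% interval (lines) for the 7 genes in all nuclei and in the 14 classes, where each was high enough to test. Of the intervals, those of Cntnap2 in astrocyte-like and microglia-like nuclei and of Cntn6 in cholinergic interneuron-like nuclei lie off 0, and none passed after adjustment.

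The genotype difference was also compared between D1 and D2 MSN-like nuclei. Of the 5 candidates tested 0 passed in limma, against 0.0473% of 12681 genes, and 1, Cntn6, had an unadjusted p under 0.05, against 5.15% of those genes. Cntn6 had a difference of 0.17 ± 0.07 (SE; adjusted p = 0.943), or 0.09 without wild type replicate 1 or without heterozygous replicate 2, and Cntnap2 one of 0.06 ± 0.04 (adjusted p = 0.943).

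The related lists behaved alike. Of 104 listed entries, 92 were tested over all nuclei, 0 passed and 5 had an unadjusted p under 0.05, against 9.93% of all genes. Of 874 tests of them in the 14 classes 0 passed and 40 had an unadjusted p under 0.05, against 6.31% of all tests. Of the cohesin list, 13 of 13 genes were above 0 over all nuclei, at a median log2 difference of 0.07, the same as the median of all genes (0.07). In the Cntnap2 list Cntnap5c had means of 0.652 ± 0.164 and 0.884 ± 0.0464 (log2 difference 0.46, adjusted p = 0.483) and Cntnap3 of 0.334 ± 0.106 and 0.414 ± 0.0803 (adjusted p = 0.61), and in the contactin list Chl1 of 0.667 ± 0.0551 and 0.797 ± 0.0798 (adjusted p = 0.483) and Cntn5 of 7.83 ± 0.242 and 9.11 ± 1.64 (adjusted p = 0.601). Immp1l, which forms the peptidase with the product of Immp2l, was at 1.16 ± 0.175 and 0.979 ± 0.0184 (SD, n = 3 each), with a log2 difference of −0.23 ± 0.11 (SE; adjusted p = 0.508), and the protease gene Mipep at 0.153 ± 0.00509 and 0.178 ± 0.00888 (adjusted p = 0.472). In the Hippo list Yap1 was at 0.0898 ± 0.00684 and 0.108 ± 0.0124 (adjusted p = 0.501) and the kinase gene Lats1 at 0.275 ± 0.0227 and 0.305 ± 0.00969 (adjusted p = 0.533). In the cohesin list Pds5b was at 0.745 ± 0.0191 and 0.852 ± 0.0868 (adjusted p = 0.506) and Rad21 at 0.197 ± 0.0131 and 0.212 ± 0.0108 (adjusted p = 0.622). Of the matrix lists, Itga8, Fbln1, Col5a1 and Col5a2 had log2 differences of 0.26, 0.36, 0.26 and 0.30, with adjusted p from 0.569 to 0.800. Of the genes named in this paragraph, all heterozygous libraries were lower for Immp1l and higher for Cntnap5c, Chl1, Pds5b and Mipep, and for the others the groups overlap. Over all nuclei the groups did not overlap for 19.3% of all genes.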

How the data were processed

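Per the labels' protocols, nuclei of frozen striatum were made into 10x Genomics 3′ v3.1 libraries and sequenced together on 1 lane. The submitters' processing notes name Cell Ranger, Seurat 4.1 and the builds mm10 and GRCm38, with no role. The authors deposited whole numbers per gene and nucleus, used as a score. From the values they look like depth-corrected UMI values, since totals per nucleus had a coefficient of variation of 10.7% and low genes often skipped the value 1. Depth before that step is unknown, so no counting intervals were computed, and the count test foreseen for raw counts was not used.

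Clusters (45) came from 2000 variable genes without the 7 candidates, 30 principal components, 15 neighbours and resolution 1 (scanpy 1.11.5, igraph 0.11.9, Python 3.11.15). Doublets were 900 nuclei (1.84%): those scoring above 0.25 and all nuclei of 7 clusters where more than 40% did. All p values come from limma 3.58.1 (R 4.3.3) with a trended prior on log2(mean + 0.01), a scale that shrinks fold changes of genes with low values. Tested genes had a mean of at least 0.02 and a summed value of at least 30 per library on average, and Benjamini-Hochberg adjustment ran over all genes of a population. D1 and D2 means were compared with the library as a term. Fits were tested on simulated data. Alternatives were other scalings, pseudocounts, no filter, array weights, a replicate block, doublets kept, equal cluster weights and leaving out each library.

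The candidates and lists were chosen with earlier results of these data known. All 7 candidates were described. From each related list the 2 genes with the largest change over all nuclei were named, since none passed, and those that share the candidate's highest class, except 1 that is not reported here. The D1 and D2 examples from the lists were picked after their values were seen.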

Additional observations from a re-analysis of the deposited data

Results flagged for a closer look

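The libraries stood apart for Cntnap2 in opposite directions in 2 classes. In astrocyte-like nuclei every heterozygous library was above every wild type one (log2 difference 0.345; 12.1% of genes did not overlap there), and in D2 MSN-like nuclei every heterozygous library was below (−0.0753; 14.7% of genes). With equal cluster weights the latter value turned to 0.0137. The difference between the classes was not tested, and neither value passed within its class. The astrocyte-like level of Cntnap2 was 11.2% of that in D1 MSN-like nuclei, where Pde10a stood at 10.6%, Rgs9 at 9.87% and Ppp1r1b at 59.0%. With groups of 3, no single library was tested for standing apart.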

How the results depend on the processing

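Over 15 alternatives, 0 candidates passed between genotypes over all nuclei, in the 14 classes or in the difference between D1 and D2 MSN-like nuclei. Leaving out 1 library gave 0 to 0 in each of these, and 2 to 3 candidates for the level in D1 against D2. That count was 3 with all libraries and 1 with no filter on low values, where 24439 genes were tested in place of 13492.

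Small genotype differences changed sign, and the cause was not tested. With median-ratio size factors Nipbl turned from 0.0231 to −0.0463, Cntnap2 from 0.0630 to −0.0068 and Immp2l from 0.0220 to −0.0475 over all nuclei. All 7 candidates had a lower difference with that scaling than in the main fit. The median log2 difference over all genes in the main fit was 0.07. With equal cluster weights Fn1 turned to 0.18 and Cntnap2 to −0.0130 over all nuclei and Cntnap2 in D2 MSN-like nuclei to 0.0137. With array weights Wwc1 in astrocyte-like nuclei turned to −0.0082. Leaving out single libraries moved Wwc1 over all nuclei between −0.170 and 0.0289 (−0.175 with equal cluster weights), Fn1 between −0.244 and 0.234, Cntnap2 between −0.0290 and 0.181, Immp2l between −0.0365 and 0.0542, Col27a1 between −0.276 and 0.128, Fn1 in endothelial-like nuclei between −0.353 and 0.0343 and Col27a1 in microglia-like nuclei between −0.0221 and 0.224. The level of Cntn6 in D1 against D2, a called difference of −0.138, turned to 0.0684 (adjusted p = 0.18 by limma) with equal cluster weights. Wwc1 in D1 against D2 lost its call without wild type replicate 1, wild type replicate 2, heterozygous replicate 1 or heterozygous replicate 2, at differences of −0.0623, −0.0861, −0.0753 and −0.0734 against −0.0812 with all libraries. Cntn6 over all nuclei was 0.126, and 0.0252 with equal cluster weights. Leaving out single libraries moved Cntn6 over all nuclei between 0.0611 and 0.184. In the same way Cntnap2 in microglia-like nuclei, 0.262 with all libraries, moved between 0.139 and 0.351. Wwc1 in astrocyte-like nuclei moved between 0.0206 and 0.178. The genotype difference of Cntn6 in D1 against D2 moved between 0.0927 and 0.248. The OPC-like shares without heterozygous replicate 1 were computed after seeing the data.

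The replicate numbers were not taken as pairs, since in no population did the deviations of all 3 same-numbered pairs of libraries correlate above 0.1. The values were −0.04, 0.15 and −0.07 over all nuclei, 0.27, 0.02 and 0.19 for the D1 class, 0.26, 0.04 and 0.17 for the D2 class and 0.09, 0.03 and 0.06 for microglia-like nuclei. Unlike-numbered pairs ran from −0.15 to 0.18, −0.28 to 0.21, −0.25 to 0.18 and −0.095 to 0.05 in the same order. Some same-numbered values lie above these ranges, and whether the numbers mark pairs was not tested. With the replicate block the number of candidates that passed was 0 in all 3 genotype comparisons.

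With 3 libraries a group, unknown depth and classes down to 27 nuclei in a library, a missed threshold does not show that levels were alike.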
